A study of Rattus norvegicus with 8 samples.

Results

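Genes that run the cell division cycle and copy DNA were followed in the rat abdominal aorta, the large vessel below the diaphragm, after ferric chloride injury. The set held 35 genes chosen by name, and all 35 had a row among the 18090 genes of the deposited table. Of them 21 act mainly in G2 phase and mitosis and 14 at the entry into S phase and during DNA synthesis.

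All animals were wild-type rats, and each library held polyA RNA of abdominal aorta. In 4 libraries (FeCl3) a paper soaked in 10% iron chloride had been placed on the outside of the vessel for 5 min, and in 4 controls (saline) a paper with 0.9% saline had been placed in the same way. Iron chloride damages the vessel wall from outside and starts a thrombus, so the comparison asked which transcripts differ between an aorta with such a thrombus and a saline-exposed one. The submitters call the 4 samples of each condition biologically independent, and the labels put all libraries in batch 1. The sources used here do not give the time from exposure to harvest, nor the strain, sex or age.

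A cell that enters the division cycle first raises cyclin E and the proteins that license replication origins, the MCM2-7 helicase loaded by CDC6 and CDT1, and then the enzymes that supply deoxynucleotides. Later it raises cyclins A and B with CDK1, the kinases and motors that build the spindle, and the anaphase promoting complex partners that destroy the cyclins. In many cell types the first wave is driven by E2F factors. The second is driven by the MuvB complex with B-MYB and FOXM1, which acts through a promoter element called CHR. Smooth muscle and endothelium of a healthy adult artery divide rarely, so these transcripts are usually scarce there. A piece of vessel also contains blood, adventitia and fat, and in a bulk library a smaller number of cycling cells and less RNA per cycling cell cannot be told apart.

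Levels are FPKM, fragments scaled by gene length and by library total, which allow a comparison between genes because they are per length. Library totals, worked out from the steps between low FPKM values, were 24304434 to 30283292 fragments. Across the 280 member values the fragments behind a value ran from 0 to 1845 with a median of 111.5, and 10 values rested on fewer than 10 fragments. Saline replicate 4 stood apart from the other controls by its haemoglobin share, 16.5% against 1.30 to 1.63% of fragments, so member results that rest on it are given with and without it. The labels and files hold no independent record of which exposure a library had, so its label could not be checked. It is used as labelled, and every saline mean and log2 ratio below depends on that. The test took the 11921 genes that reached 1 FPKM in 4 or more of the 8 libraries and compared log2(FPKM + 1) between FeCl3 and saline with limma, with Benjamini-Hochberg adjustment over all of them. The difference on this scale, FeCl3 minus saline, is called the log2 ratio below; it understates the change of scarce transcripts.

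Promoter sequences are shown because the mitotic and the replication genes, which are described apart below, differ in the motifs they hold. RefSeq promoters of the build GRCr8, from 250 bases before to 50 bases after the start of the gene, were found for 27 of the 35 members, 17 mitotic and 10 of the G1 and S phase group. The 8 others were Ccna2, Aurkb, Ube2c, Tpx2, Ccne2, Cdc6, Mcm4 and Rrm2. Capitals mark 3 motifs searched on both strands, the CHR (TTTGAA or TTCGAA), the CCAAT box (CCAAT) and the E2F site (TTTCCCGC, TTTCGCGC, TTTGCCGC or TTTGGCGC). Cyclin B2 (Ccnb2, chr8:79981609-79981908, minus strand) and the proliferation antigen Ki-67 (Mki67, chr1:199952544-199952843, minus strand) stand for the mitotic group, and the helicase subunits Mcm2 (chr4:122918045-122918344, minus strand) and Mcm5 (chr19:13488563-13488862, plus strand) for the replication group.
Ccnb2: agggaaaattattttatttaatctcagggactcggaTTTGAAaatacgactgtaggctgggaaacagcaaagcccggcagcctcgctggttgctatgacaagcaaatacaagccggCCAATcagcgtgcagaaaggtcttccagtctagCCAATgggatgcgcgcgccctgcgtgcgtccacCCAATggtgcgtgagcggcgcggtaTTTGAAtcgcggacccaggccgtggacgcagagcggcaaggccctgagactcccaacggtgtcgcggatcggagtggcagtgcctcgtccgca
Mki67: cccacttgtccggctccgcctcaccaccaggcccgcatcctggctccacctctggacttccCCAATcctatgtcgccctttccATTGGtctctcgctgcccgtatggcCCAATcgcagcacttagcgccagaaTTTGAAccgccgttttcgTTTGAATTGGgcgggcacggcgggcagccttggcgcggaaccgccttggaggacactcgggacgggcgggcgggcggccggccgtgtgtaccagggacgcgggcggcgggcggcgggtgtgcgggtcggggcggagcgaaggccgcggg
Mcm2: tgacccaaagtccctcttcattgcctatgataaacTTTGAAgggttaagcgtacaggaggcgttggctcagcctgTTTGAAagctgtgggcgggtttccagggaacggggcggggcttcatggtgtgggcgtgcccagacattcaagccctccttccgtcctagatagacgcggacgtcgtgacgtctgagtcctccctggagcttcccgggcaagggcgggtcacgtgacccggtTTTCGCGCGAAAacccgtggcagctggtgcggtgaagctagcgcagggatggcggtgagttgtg
Mcm5: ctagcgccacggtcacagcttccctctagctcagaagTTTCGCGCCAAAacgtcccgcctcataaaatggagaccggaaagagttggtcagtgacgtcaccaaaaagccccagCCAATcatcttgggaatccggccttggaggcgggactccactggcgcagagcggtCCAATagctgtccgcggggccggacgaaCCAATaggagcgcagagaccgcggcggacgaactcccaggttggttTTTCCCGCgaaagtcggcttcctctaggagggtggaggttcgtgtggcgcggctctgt
Ccnb2 held 2 CHR, of which the nearer began 43 bases before the start site, and 3 CCAAT boxes between them. Mki67 held 2 CHR and 4 CCAAT boxes, one of which overlaps a CHR by its letters. Mcm2 held 2 overlapping E2F matches just before the start site and 2 CHR, and no CCAAT box. Mcm5 held 3 E2F matches and 3 CCAAT boxes, and no CHR.

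Over the groups, a CHR stood in 11 of 17 mitotic promoters (64.7%) and 3 of 10 G1 and S phase promoters (30%), beside 19.5% of all 27457 RefSeq promoters. An E2F match stood in 1 of 17 mitotic promoters (5.88%), that of Cdk1, and in 7 of 10 G1 and S phase promoters (70%), beside 2.25% of all promoters. The 7 were Cdt1, Mcm2, Mcm3, Mcm5, Mcm6, Mcm7 and Tyms. CCAAT boxes were common throughout, in 14 of 17 (82.4%) and 6 of 10 (60%) beside 37.7%, while a CHR together with a CCAAT box stood in 10 of 17 (58.8%) and 2 of 10 (20%) beside 7.83%. Among the 9722 promoters of tested genes the shares were 13.1% for the CHR, 37.8% for the CCAAT box, 3.86% for E2F and 5.36% for the CHR with a CCAAT box. None of the 3 motifs was matched in the windows of Aurka, Bub1 and Ccne1. Letters that read as the end of an intron (cttcag) and as a coding start (atggacagatg) flank the annotated start of Aurka. Its window may therefore lie at an internal exon and not describe the Aurka promoter, though it is counted among the 17. A match describes the letters of the window and says nothing of binding.

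**Figure D1:**
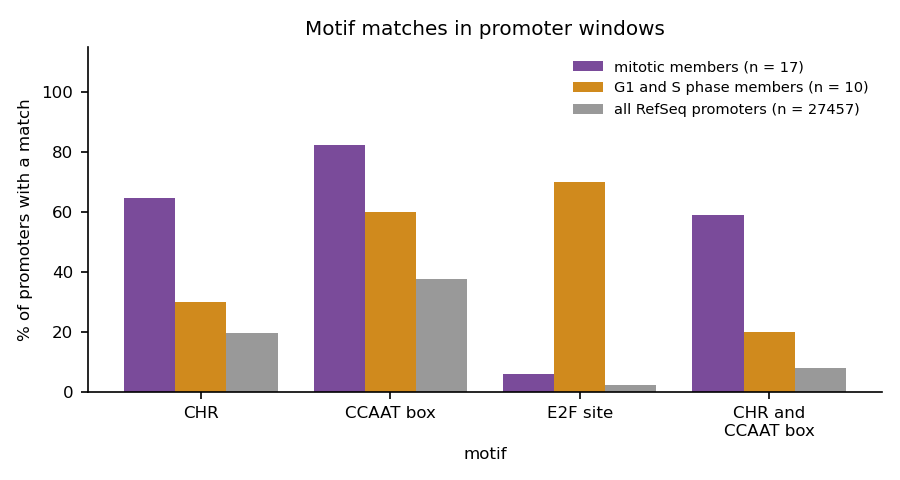
Share of promoter windows (%, vertical axis from 0) with a match to each motif, for 17 mitotic members, 10 G1 and S phase members and all 27457 RefSeq promoters. The CHR bar is highest for the mitotic members (64.7%) and the E2F bar for the G1 and S phase members (70%).

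Most of the set was scarce. In all 8 libraries 30 of the 35 members stayed under 10 FPKM, and 1, the origin licensing factor Cdc6, stayed under 1 FPKM throughout. The filter on low values passed 24 members, 14 mitotic and 10 of the G1 and S phase group. The 11 others (Ccnb2, Aurkb, Plk1, Bub1b, Kif11, Cenpe, Cenpf, Ccne1, Ccne2, Cdc6 and Cdt1) are described by their values alone. Over all 8 libraries the FeCl3 and saline values overlapped for every one of the 35 members.

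**Figure D2:**
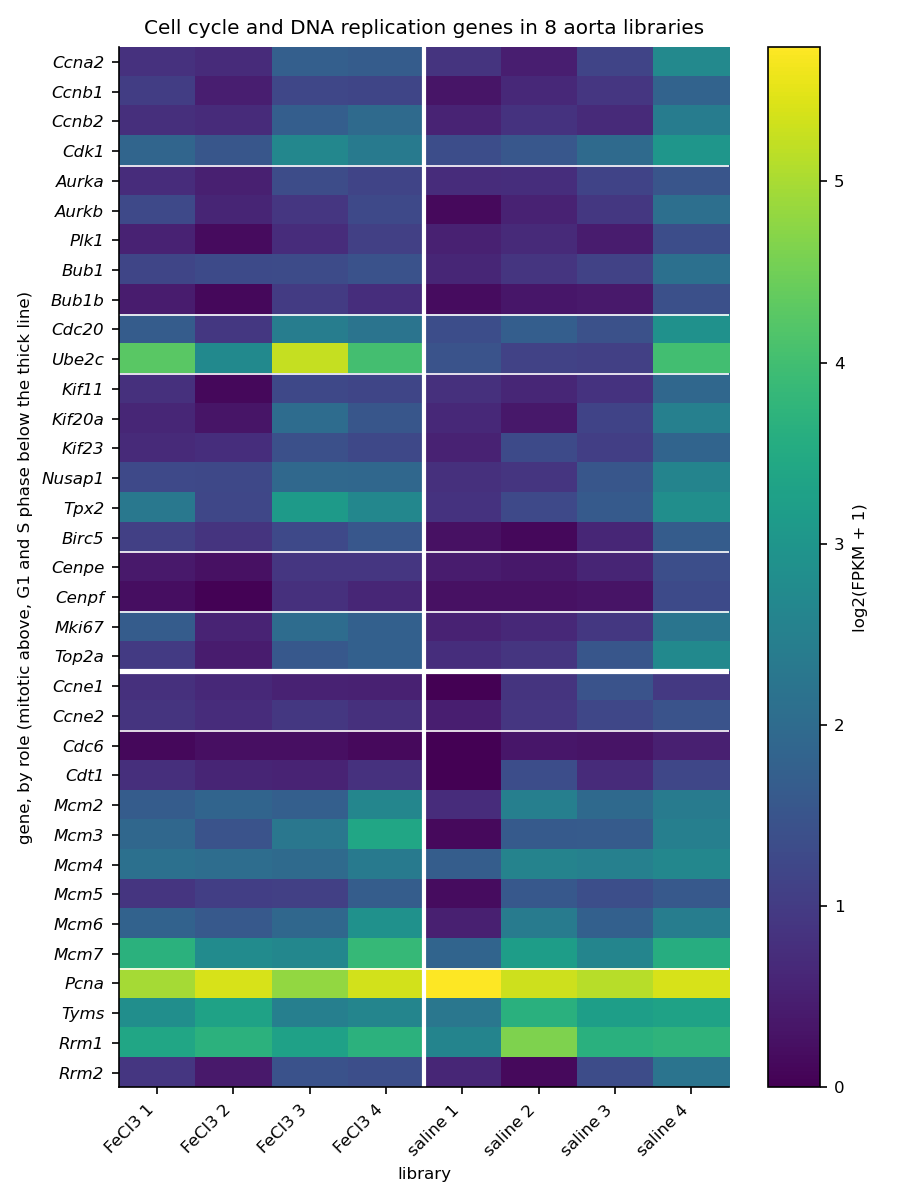
Level of each of the 35 members (rows, grouped by role, mitotic above the thick line) in each library (columns, FeCl3 on the left and saline on the right), coloured by log2(FPKM + 1). Among the mitotic rows saline replicate 4 is the brightest column in 19 of 21, and FeCl3 replicate 3 in the other two, Ube2c and Tpx2. Pcna is the brightest row.

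No gene passed the main test between FeCl3 and saline, a member or otherwise. At an adjusted p under 0.05 limma called 0.0% of the 11921 genes (smallest adjusted p = 0.245), and 0 of the 24 tested members; limma voom on recovered fragments also called 0. After conversion to TPM limma called 27.6% of the genes, 3288 of 11921 with 65 of them higher after FeCl3, and again 0 of the 24 members. On FPKM at an unadjusted p under 0.05 it gave 4.42% of genes higher and 12.2% lower after FeCl3, and among the 24 members 1 higher, Ube2c, and 0 lower. Values of the groups did not overlap for 1.06% of tested genes in the higher and 8.75% in the lower direction, against 0 of 35 members in either direction. Log2 ratios of the tested members were positive for 12 and negative for 12, with a median of 0.02. Over all tested genes 3558 of 11921 were positive and the median was -0.25. With all 35 members and no filter the median was -0.04, beside -0.13 over all genes, so the sign of the members' median rests on the filter. Scaling moved both medians: they were -0.43 for the members and -0.90 for all genes after conversion to TPM, 0.18 and -0.05 under median-of-ratios factors, and 0.21 and 0.01 with haemoglobin genes left out of the total. Residual SD on the log2 scale was 0.272 to 1.23 for the tested members (median 0.649) and had a median of 0.451 over all tested genes.

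**Figure D3:**
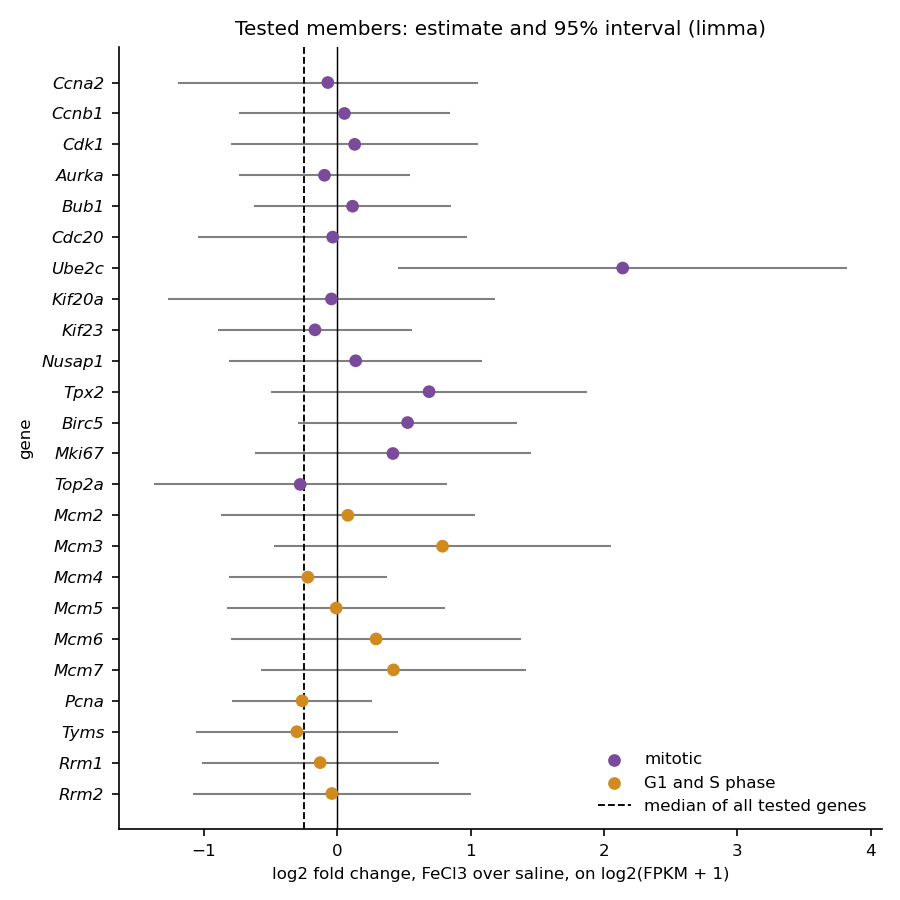
Log2 ratio of FeCl3 over saline on log2(FPKM + 1) (points) with its 95% interval from limma (lines) for the 24 tested members. The solid line marks 0 and the dashed line the median of all tested genes, -0.25. The interval of Ube2c lies above 0 and those of the 23 other members include 0.

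Most mitotic members had the same highest library within each condition, and after FeCl3 also the same lowest library. The lowest control was mixed, saline replicate 1 for 13 of the 21, replicate 2 for 6 and replicate 3 for 2. Summed over the 21 genes, the level was 41.8, 18.3, 82.7 and 56.6 FPKM in FeCl3 replicates 1 to 4, against 13.5, 16.6, 23.8 and 88.4 FPKM in saline replicates 1 to 4. Saline replicate 4 exceeded every FeCl3 library. Saline replicates 1 and 2 lay below the lowest FeCl3 library and saline replicate 3 above it. Ube2c carried much of the sum: the other 20 genes summed to 23.5, 12.7, 46.0 and 41.3 FPKM after FeCl3, against 11.7, 15.4, 22.6 and 73.4 FPKM after saline. Without Ube2c FeCl3 replicate 2 therefore lay below saline replicate 2, and it was the lowest of all 8 libraries for 9 of the 21 members, as was saline replicate 1 for 9. Saline replicate 4 was the highest of the saline libraries for 21 of 21 mitotic members and the highest of all 8 for 19, whereas 5.31% of all tested genes had their highest value there. Within the FeCl3 group replicate 2 was the lowest library for 19 of 21 and replicate 3 the highest for 15 of 21. The coefficient of variation had a median of 58.5% across the FeCl3 libraries and 95.3% across the saline libraries (n = 4 each).

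Haemoglobin and blood cell markers differed between the same libraries. Haemoglobin genes took 24.7, 16.4, 34.1 and 19.95% of fragments in FeCl3 replicates 1 to 4, against 1.63, 1.30, 1.49 and 16.5% in saline replicates 1 to 4. The 95% Wilson interval, which covers counting error only, was widest in FeCl3 replicate 3, at 34.071 to 34.108%. Saline replicate 4 stood with the FeCl3 libraries and apart from the other controls, and the FeCl3 library with the lowest share, replicate 2, was also the one with the lowest mitotic sum. The haemoglobin genes did not all share this order: Hbb had 9008, 58931, 17833 and 62419 FPKM in FeCl3 replicates 1 to 4. B cell and germinal centre markers (8 of 8 genes found) summed to 60.4, 30.5, 109.9 and 103.5 FPKM after FeCl3, against 5.78, 17.1, 5.95 and 65.6 FPKM after saline, and Cd79a, Ms4a1 and Pax5 were at 0 in saline replicate 1. The FeCl3 libraries stood in the same order by this sum as by the mitotic sum, which was not so for the other blood cell lists. T cell markers (8 of 8) summed to 81.9, 38.5, 65.1 and 478.1 FPKM after FeCl3, against 0.478, 11.7, 5.71 and 55.6 FPKM after saline, and Cd3d, Cd3e and Cd2 were at 0 in saline replicate 1. Erythroid markers (8 of 8) summed to 259400 to 589300 FPKM after FeCl3, against 21020 to 258400 FPKM after saline. Platelet markers (4 of 5 found) summed to 1094, 2497, 1360 and 959.8 FPKM after FeCl3, against 19.1, 38.4, 97.3 and 1641 FPKM after saline, and were highest in FeCl3 replicate 2, the FeCl3 library with the lowest mitotic sum. Macrophage and neutrophil markers (6 of 6) summed to 715.7, 708.9, 254.9 and 324.0 FPKM after FeCl3, against 3.78, 69.3, 57.9 and 524.0 FPKM after saline, and were lowest of the FeCl3 libraries in replicate 3, the one with the highest mitotic sum. For each of these lists saline replicate 4 was the highest control. Of the 5 immature thymocyte markers Rag1, Rag2, Dntt and Ptcra stayed under 1 FPKM everywhere. The fifth, Cd1d1, ranged from 3.02 to 6.58 FPKM after FeCl3, against 1.33 to 6.23 FPKM after saline. The part of these cells in the levels of the mitotic members was not tested.

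Vessel wall markers checked the tissue label. Smooth muscle markers (6 of 6) summed to 3685 to 10600 FPKM after FeCl3, against 4739 to 25400 FPKM after saline, and endothelial markers (5 of 5) to 109.9 to 185.6 FPKM after FeCl3, against 6.45 to 180.5 FPKM after saline. Saline replicate 1 was the control with the least endothelial signal and the most smooth muscle signal. It was also the lowest library for 12 of the 14 G1 and S phase members, and for 34.6% of all tested genes. Fibroblast markers (5 of 5) summed to 1344 to 4535 FPKM after FeCl3, against 1462 to 3863 FPKM after saline, and adipocyte markers (4 of 4) to 417.1 to 10230 FPKM after FeCl3, against 1.80 to 14020 FPKM after saline.

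**Figure D4:**
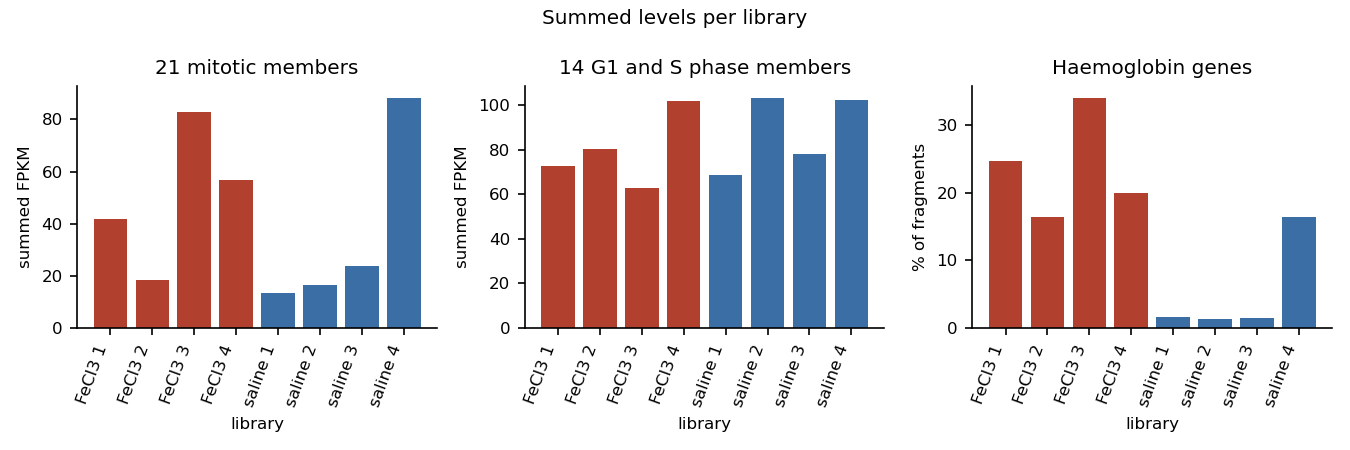
Summed FPKM of the 21 mitotic members (left), of the 14 G1 and S phase members (middle) and share of fragments from haemoglobin genes (right, %) in each library, FeCl3 in red and saline in blue, 1 bar a library. Saline replicate 4 has the highest mitotic sum, 88.4 FPKM, and a haemoglobin share of 16.5%, while the other saline libraries have 13.5 to 23.8 FPKM and 1.30 to 1.63%. The G1 and S phase sums range from 62.6 to 103.4 FPKM with both conditions mixed.

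Mitotic cyclins and their kinase came first in the ordering by role. Cyclin B2 (Ccnb2), which with CDK1 drives entry into mitosis, had 0.717, 0.638, 2.27 and 2.94 FPKM in FeCl3 replicates 1 to 4, against 0.488, 0.802, 0.604 and 4.36 FPKM in saline replicates 1 to 4. The highest value was in a control, FeCl3 replicates 3 and 4 came next, and the other 5 libraries lay under 1 FPKM. Cdk1, the kinase itself, had 2.69, 1.90, 5.30 and 4.16 FPKM after FeCl3, against 1.57, 1.92, 2.99 and 7.09 FPKM after saline. Its log2 ratio was 0.13 with a 95% interval of -0.80 to 1.06 (limma, adjusted p = 0.885). Cyclin A2 (Ccna2), which acts in S and G2 phase, had 0.760, 0.627, 2.34 and 2.19 FPKM after FeCl3, against 0.823, 0.388, 1.27 and 5.47 FPKM after saline. Cyclin B1 (Ccnb1) ranged from 0.402 to 1.32 FPKM after FeCl3, against 0.252 to 2.55 FPKM after saline. All 4 were highest in saline replicate 4.

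Kinases of mitosis and of the spindle checkpoint were among the scarcest members. Polo-like kinase 1 (Plk1), which acts at centrosomes, kinetochores and the midzone, ranged from 0.117 to 1.14 FPKM after FeCl3, against 0.364 to 1.57 FPKM after saline. Aurora A (Aurka), the centrosome kinase, ranged from 0.43 to 1.53 FPKM after FeCl3, against 0.664 to 1.84 FPKM after saline, and had the smallest excess of saline replicate 4 among the mitotic members, at 2.16 times the mean of saline replicates 1 to 3. Aurora B (Aurkb), the kinase of the chromosomal passenger complex, ranged from 0.519 to 1.40 FPKM after FeCl3, against 0.106 to 3.28 FPKM after saline. Bub1, a checkpoint kinase of the kinetochore, was even across the FeCl3 libraries, with 1.29, 1.44, 1.47 and 1.72 FPKM after FeCl3, against 0.538, 0.855, 1.20 and 3.33 FPKM after saline. All 4 FeCl3 values of Bub1 lay above saline replicates 1 to 3 and below saline replicate 4. Its coefficient of variation was 12.2% after FeCl3, the lowest of the 21 mitotic members. Bub1b, which encodes the checkpoint protein BUBR1, ranged from 0.0833 to 0.992 FPKM after FeCl3, against 0.143 to 1.66 FPKM after saline.

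Ube2c stood out among the members. It encodes the E2 enzyme that starts ubiquitin chains for the anaphase promoting complex. It had 18.3, 5.60, 36.7 and 15.4 FPKM in FeCl3 replicates 1 to 4, against 1.77, 1.19, 1.14 and 15.1 FPKM in saline replicates 1 to 4. Every FeCl3 library was above saline replicates 1 to 3, and saline replicate 4 lay within the FeCl3 range. The log2 ratio was 2.14 ± 0.74 (SE) with a 95% interval of 0.46 to 3.82, and limma gave an adjusted p of 0.258. Its FeCl3 libraries stood in the order of their haemoglobin share, replicate 3 first and replicate 2 last, though not in the order of Hbb alone. With the log2 of the summed haemoglobin FPKM as a covariate, the log2 ratio of Ube2c was -0.62 (limma, adjusted p = 0.9998). RefSeq annotates 4 pseudogenes and 1 similar gene of Ube2c (Ube2cl1) in the rat, none of them a row of the table, so fragments of near-identical copies could have been counted for or lost from it. Cdc20, the activator of the same complex in mitosis, differed in pattern from Ube2c, with 2.17, 0.906, 4.44 and 3.63 FPKM after FeCl3, against 1.55, 2.27, 1.69 and 6.48 FPKM after saline. Its log2 ratio was -0.03 (limma, adjusted p = 0.974).

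Spindle and midzone genes included Tpx2, the mitotic member with the second highest mean level after Ube2c. Tpx2, which activates Aurora A on spindle microtubules, had 3.92, 1.34, 7.77 and 5.34 FPKM after FeCl3, against 0.790, 1.40, 2.08 and 6.16 FPKM after saline. FeCl3 replicate 2 lay among saline replicates 1 to 3, and the log2 ratio was 0.69 ± 0.52 (SE; limma, adjusted p = 0.503). Survivin (Birc5), a subunit of the chromosomal passenger complex and an inhibitor of apoptosis, had 1.12, 0.818, 1.40 and 1.96 FPKM after FeCl3, against 0.198, 0.0899, 0.527 and 2.18 FPKM after saline. All 4 FeCl3 values were above saline replicates 1 to 3, and the log2 ratio was 0.53 ± 0.36 (SE; limma, adjusted p = 0.462). Kif20a, a kinesin of cytokinesis, had 0.535, 0.263, 3.10 and 1.88 FPKM after FeCl3, against 0.577, 0.296, 1.24 and 4.64 FPKM after saline. It had the widest spread among FeCl3 libraries of the mitotic members, a coefficient of variation of 90.7%. Kif11, the kinesin that separates spindle poles, lay at 0.0926 to 1.39 FPKM after FeCl3, against 0.531 to 2.78 FPKM after saline. Kif23, a subunit of centralspindlin, lay at 0.603 to 1.65 FPKM after FeCl3, against 0.455 to 2.62 FPKM after saline, and the microtubule binding protein Nusap1 at 1.38 to 2.81 FPKM after FeCl3, against 0.730 to 5.03 FPKM after saline.

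Kinetochore and chromosome proteins repeated the arrangement. Cenpe, a kinetochore kinesin, ranged from 0.189 to 0.878 FPKM after FeCl3, against 0.293 to 1.62 FPKM after saline, and Cenpf, a protein of the outer kinetochore, from 0.0280 to 0.732 FPKM after FeCl3, against 0.189 to 1.44 FPKM after saline. Mki67, the coat protein of mitotic chromosomes and a common marker of proliferation, had 2.20, 0.482, 3.11 and 2.37 FPKM after FeCl3, against 0.457, 0.578, 0.910 and 3.69 FPKM after saline. In 3 FeCl3 libraries Mki67 exceeded saline replicates 1 to 3, whereas FeCl3 replicate 2 was within them. The log2 ratio was 0.42 ± 0.45 (SE; limma, adjusted p = 0.646). Topoisomerase IIα (Top2a), which untangles sister chromatids, had 0.974, 0.345, 1.99 and 2.41 FPKM after FeCl3, against 0.678, 0.836, 1.88 and 5.58 FPKM after saline. Its log2 ratio was -0.28 ± 0.48 (SE; limma, adjusted p = 0.781).

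Saline replicate 4 differed from the other controls more in the mitotic members than in the replication members. Its FPKM over the mean of saline replicates 1 to 3 was 2.16 to 11.04 for the 21 mitotic members, with a median of 4.42. For the 14 G1 and S phase members it was 0.922 to 5.09, with a median of 1.74, and for all tested genes the median was 0.923. Rrm2 at 5.09 and Mcm3 at 3.21 had the largest ratios of the G1 and S phase group. These ratios describe 1 library, and no test of the difference between the groups of genes was made.

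**Figure D5:**
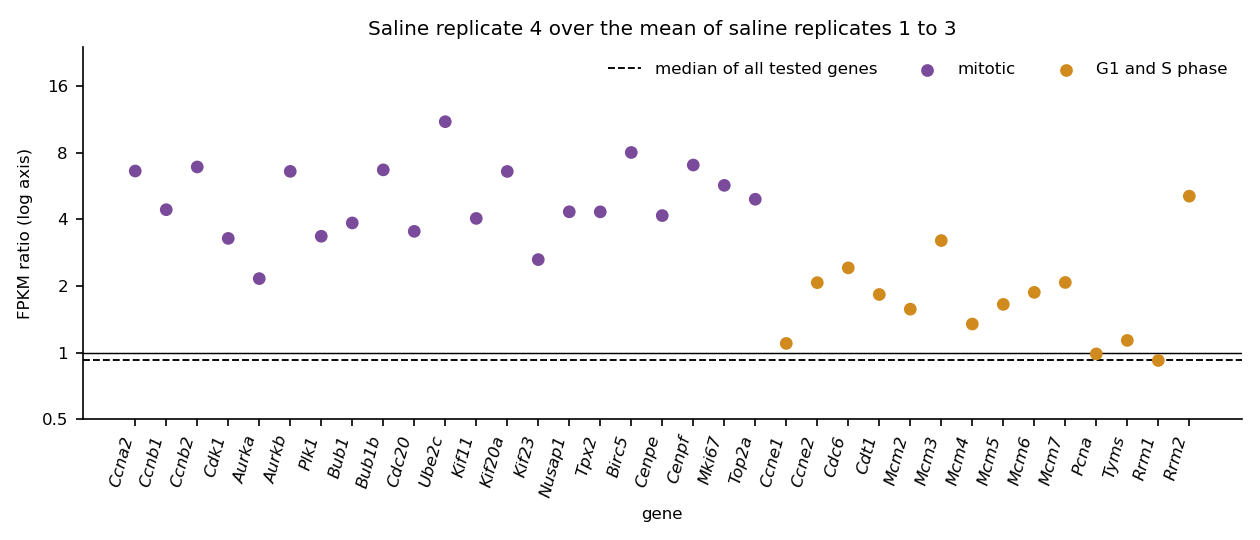
FPKM in saline replicate 4 divided by the mean of saline replicates 1 to 3 for each of the 35 members (log axis), mitotic members in purple and G1 and S phase members in orange. The dashed line is the median of all tested genes, 0.923. Mitotic members lie between 2.16 (Aurka) and 11.04 (Ube2c), and Pcna, Rrm1, Tyms and Ccne1 lie near 1.

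Without saline replicate 4, limma called 1.34% of the 11921 genes at an adjusted p under 0.05 and 0 of the 24 tested members. The lowest adjusted p of a member was then 0.0552, for Ube2c, at a log2 ratio of 2.83. In the same limma fit Tpx2 was at 1.09 (adjusted p = 0.286), Birc5 at 0.86 (adjusted p = 0.186) and Mki67 at 0.80 (adjusted p = 0.328). The FeCl3 libraries were then all above the remaining controls for 3 of the 35 members, Bub1, Ube2c and Birc5. All 3 are among the 24 tested, and the share was 5.65% over all tested genes. The median over the tested members was 0.37 without that library, beside -0.25 over all tested genes. This fit kept the filter set on all 8 libraries. Ccnb1, Mki67 and Birc5 passed that filter through FeCl3 libraries and saline replicate 4, and stayed under 1 FPKM in saline replicates 1 to 3. Such a filter favours positive log2 ratios, so no conclusion is drawn from the sign of this median.

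With the log2 of the summed haemoglobin FPKM as a covariate, all 24 tested members had negative log2 ratios. They ran from -1.81 to -0.62 for the 14 mitotic members (median -1.05). For the 10 G1 and S phase members they ran from -1.48 to -0.03 (median -0.32). The median over all tested genes was -0.16. At an unadjusted p under 0.05 this fit gave 0.914% of all tested genes lower, and 8 of the 24 members, Ccna2, Ccnb1, Cdc20, Cdk1, Kif20a, Nusap1, Rrm2 and Top2a. The adjusted p in limma was 0.9998 for each. Saline replicate 4 is the only control whose haemoglobin level lies in the range of the FeCl3 libraries. The log2 ratios of this fit therefore rest largely on that library, which was the highest of all libraries for 19 of the 21 mitotic members. Haemoglobin level and condition overlap in this fit and cannot be fully told apart.

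Genes of G1 and S phase showed another arrangement, with saline replicate 1 lowest for 12 of the 14 and no library dominant at the top. Summed over 14 genes the level was 72.6, 80.2, 62.6 and 101.8 FPKM after FeCl3, against 68.5, 103.4, 78.0 and 102.2 FPKM after saline, so by the sum FeCl3 replicate 3 was lowest. Pcna, which was highest in saline replicate 1, makes up much of that sum. Without Pcna the other 13 genes summed to 42.2, 39.4, 35.5 and 61.9 FPKM after FeCl3, against 15.98, 64.6, 44.1 and 61.0 FPKM after saline. FeCl3 replicate 4 was the highest of all libraries for 5 of the 14, saline replicate 4 for 4 and saline replicate 2 for 3. Cyclin E1 (Ccne1), which with CDK2 opens S phase, ranged from 0.443 to 0.746 FPKM after FeCl3, against 0 to 1.78 FPKM after saline. Cyclin E2 (Ccne2) ranged from 0.668 to 0.902 FPKM after FeCl3, against 0.389 to 1.79 FPKM after saline. The 0 fragments of Ccne1 in saline replicate 1 allow a level of up to 0.0485 FPKM (3 fragments, counting error only).

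Origin licensing genes were led by the MCM2-7 helicase. Its 6 subunits summed to 23.2, 16.4, 18.5 and 41.2 FPKM after FeCl3, against 6.17, 25.9, 18.9 and 31.6 FPKM after saline. FeCl3 replicate 4 was highest and saline replicate 1 lowest, and the library with the highest sum was also the one with the highest T cell marker sum, 478.1 FPKM. That coincidence was not tested. Mcm3 had 2.76, 1.77, 3.87 and 9.57 FPKM after FeCl3, against 0.113, 2.06, 2.14 and 4.61 FPKM after saline. Its log2 ratio was 0.79 ± 0.56 (SE; limma, adjusted p = 0.473), with FeCl3 replicate 4 and saline replicate 1 at the ends. Mcm7, the most abundant subunit, had 11.6, 5.78, 5.35 and 13.5 FPKM after FeCl3, against 2.60, 8.20, 5.13 and 11.02 FPKM after saline. Mcm2 had 2.17, 2.59, 2.36 and 5.23 FPKM after FeCl3, against 0.665, 4.55, 2.92 and 4.26 FPKM after saline. For both, the groups overlapped over most of their range. The subunits Mcm4, Mcm5 and Mcm6 had log2 ratios of -0.22, -0.01 and 0.29. The loading factors were scarcer than the helicase: Cdc6 ranged from 0.0907 to 0.185 FPKM after FeCl3, against 0.0112 to 0.417 FPKM after saline, and Cdt1 from 0.485 to 0.758 FPKM after FeCl3, against 0 to 1.54 FPKM after saline. Cdt1 had 0 fragments in saline replicate 1, which allows up to 0.0442 FPKM.

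The group of the replication clamp and the nucleotide enzymes held the most abundant member, Pcna, at a mean of 38.1 FPKM over the 8 libraries. Pcna, the sliding clamp of the DNA polymerases, which also serves in repair, had 30.4, 40.8, 27.1 and 40.0 FPKM after FeCl3, against 52.5, 38.7, 33.9 and 41.2 FPKM after saline. It was highest in saline replicate 1, the library lowest for 21 of the 35 members, and its log2 ratio was -0.26 ± 0.23 (SE; limma, adjusted p = 0.565). Tyms, which makes thymidylate, had 6.16, 8.87, 4.56 and 5.12 FPKM after FeCl3, against 3.83, 11.5, 8.34 and 8.94 FPKM after saline, a log2 ratio of -0.30 (limma, adjusted p = 0.648). The ribonucleotide reductase subunits parted: Rrm1, the large one, had 9.61, 11.9, 8.78 and 11.9 FPKM after FeCl3, against 5.05, 23.6, 11.5 and 12.3 FPKM after saline. Rrm2, the small subunit that is made in S phase, had 0.891, 0.315, 1.71 and 1.59 FPKM after FeCl3, against 0.529, 0.101, 1.51 and 3.62 FPKM after saline. Rrm2 was highest in saline replicate 4 and lowest of the FeCl3 libraries in replicate 2, as most mitotic members were, and Rrm1 was not.

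RefSeq annotates a pseudogene or similar gene for 14 of the 35 members, Ube2c, Pcna, Cdk1 and Mki67 among them, and 0 of these copies had a row in the table. The sources used here do not say how fragments shared with such copies were counted, so the levels of these members are uncertain to that extent.

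The rest of the pathway was read in 10 further lists of 138 genes, of which 137 were found and 107 tested. None of the 107 passed at an adjusted p under 0.05 in the main limma test. At an unadjusted p under 0.05, 7 were higher and 5 lower, beside 4.42% and 12.2% of all tested genes, and the median log2 ratio was -0.105 with 38 positive. Groups did not overlap for 5 of the 107 in the lower and 0 in the higher direction, beside 8.75% and 1.06% of all tested genes. Without saline replicate 4 limma called 1 of the 107, Cdc25b. After conversion to TPM it called 19, with 1 higher, Cdc25b, and 18 lower.

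Cdc25b, a phosphatase that activates CDK1 and one of the 2 most abundant genes of its list, had the largest fold change of the 107. It had 612.5, 238.9, 855.2 and 339.3 FPKM after FeCl3, against 16.7, 17.9, 23.1 and 326.7 FPKM after saline, a log2 ratio of 3.50 ± 0.92 (SE; limma, adjusted p = 0.245). Without saline replicate 4 the log2 ratio was 4.50 and passed the threshold (limma, adjusted p = 0.00905), and with the haemoglobin covariate it was -0.21 (limma, adjusted p = 0.9998). Like Ube2c it was above saline replicates 1 to 3 in every FeCl3 library, had saline replicate 4 within the FeCl3 range and put the FeCl3 libraries in the order of their haemoglobin share. Wee1, the kinase that opposes it, had 4.92, 6.62, 3.09 and 3.45 FPKM after FeCl3, against 13.4, 4.49, 5.42 and 4.15 FPKM after saline.

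Upstream of S phase, cyclin D2 (Ccnd2), which links growth signals to CDK4 and CDK6, had 31.0, 31.9, 45.2 and 55.7 FPKM after FeCl3, against 124.5, 59.4, 79.2 and 77.5 FPKM after saline. Every FeCl3 library was below every control, and the log2 ratio was -1.03 ± 0.30 (SE; limma, adjusted p = 0.245). Cyclin D3 (Ccnd3) differed little between libraries, at 40.5 to 43.1 FPKM after FeCl3, against 39.4 to 52.7 FPKM after saline. Of the CDK inhibitors, Cdkn1b (p27) lay at 27.8 to 56.6 FPKM after FeCl3, against 22.4 to 52.7 FPKM after saline, and Cdkn2c (p18) at 12.9 to 67.6 FPKM after FeCl3, against 6.27 to 73.5 FPKM after saline. Rbbp4, a histone binding subunit of the MuvB complex, was lower in every FeCl3 library than in every control. It had 22.2 to 31.7 FPKM after FeCl3, against 32.3 to 44.4 FPKM after saline, and an adjusted p of 0.396 in limma. Tfdp1, the dimer partner of E2F factors, had a log2 ratio of -0.34 (limma, adjusted p = 0.450).

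At the fork, Rpa3, a subunit of the single-strand binding complex, had 27.9, 81.9, 51.4 and 43.9 FPKM after FeCl3, against 12.5, 23.8, 26.4 and 30.6 FPKM after saline, a log2 ratio of 1.07 (limma, adjusted p = 0.258). Only FeCl3 replicate 1 overlapped with the controls. Pole4, a polymerase epsilon subunit, had a log2 ratio of 0.19, the origin recognition subunits Orc4 and Orc2 of -0.10 and -0.26, and the nucleotide enzymes Impdh2 and Ctps1 of 0.16 and -0.76. At the kinetochore Zwint stood at -1.05 and the checkpoint protein Bub3 at -0.08, and the cohesin subunits Rad21 and Stag2 stood at -0.39 and -0.05. Ube2s, which extends the chains that Ube2c begins, differed by 0.22 and the complex subunit Anapc5 by -0.35. None of the genes in this paragraph had an adjusted p under 0.05 in limma.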

How the data were processed

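FPKM values per gene and library were computed and deposited by the authors. Tools listed in the submitters' processing notes are HTSeq, HISAT2 and fastp, with mRatBN7.2 as the build; versions and the annotation are not given in the sources used here. Libraries were made from polyA RNA, per the labels' protocols. Columns were matched to samples by title, and 0 value columns were left out.

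Low FPKM values come in steps of 1 fragment. From them library totals and gene lengths were recovered, 100% of values giving whole fragments within 0.02. The step of each gene was chosen to make its values whole, so this share is no check of the recovery. Recovered fragments reached at least 99.85% of each total. FPKM are not counts, so the test was limma 3.58.1 (R 4.3.3; trend, two-sided) on log2(FPKM + 1), 4 against 4 libraries, for genes at 1 FPKM or more in at least 4 libraries, with Benjamini-Hochberg adjustment at 0.05. The code was tested on simulated data.

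The 35 members and all other lists were chosen with earlier results of these data known. The text describes every member, and from each other list names the 2 genes with the highest mean FPKM and up to 3 genes past the threshold. Cell type markers appear beside results they move with. Haemoglobin shares cover 12 genes. Alternatives were a pseudocount of 0.1, other filters, TPM, median-of-ratios scaling and haemoglobin left out of totals. Others were limma without trend or robust, and voom weights with limma on recovered fragments. The haemoglobin covariate was the log2 of the summed FPKM of the haemoglobin genes. Each library was also left out in turn, and saline replicates 1 and 4 together. Promoters came from RefSeq (GRCr8), whose coordinates differ from those of mRatBN7.2. Python 3.11.15 with matplotlib 3.10.9 drew the figures.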

Additional observations from a re-analysis of the deposited data

Results flagged for a closer look

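A value was listed here when, among the 4 libraries of a condition, its gap to the nearest other was above Dixon's 95% critical value for its share of the whole range. Of 70 group values, 35 members in 2 conditions, 9 met it. The critical value assumes normally distributed values, while FPKM were used without a log, so the share expected by chance is not known. In 8 of the 9 the library was saline replicate 4, and the members were mitotic. Cyclin B2 (Ccnb2) had 4.355 FPKM there, against 0.488 to 0.802 FPKM in the other controls. Cenpf had 1.441 FPKM, against 0.189 to 0.230 FPKM, and its fellow kinetochore gene Cenpe 1.62 FPKM, against 0.293 to 0.517 FPKM. Ube2c had 15.07 FPKM, against 1.14 to 1.77 FPKM, and Cdc20 6.481 FPKM, against 1.55 to 2.27 FPKM. The checkpoint gene Bub1b had 1.659 FPKM, against 0.143 to 0.319 FPKM, and the motor Kif11 2.781 FPKM, against 0.531 to 0.802 FPKM. Mki67 had 3.692 FPKM, against 0.457 to 0.910 FPKM. These 8 values come from 1 library and are not independent of each other. The ninth was Mcm2 in FeCl3 replicate 4, with 5.226 FPKM, against 2.17 to 2.59 FPKM in the other FeCl3 libraries. That library also had the highest T cell marker sum, 478.1 FPKM, whose part in the value was not tested.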

How the results depend on the processing

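No member passed an adjusted p under 0.05 in limma under any of the 19 alternatives. The count of genes called, 0 in the main test, was 3288 (65 higher after FeCl3) after rescaling to TPM and 51 (51 higher) with saline replicates 1 and 4 left out, and ranged from 0 to 160 when 1 library was left out, the 160 (150 higher) being without saline replicate 4. The median log2 ratio of the tested members, 0.02, became -0.43 after rescaling to TPM (all genes -0.90) and -0.81 with the haemoglobin covariate (all genes -0.16), and leaving out 1 library gave -0.17 (saline replicate 1) to 0.37 (saline replicate 4). The filter was not recomputed when a library was left out, and the cause was not tested. Of 439 member values under alternatives 83 reversed sign, over 23 of the 24 tested members; Tyms (1 of 24) kept its direction. Depth limits the scarce members most, since 10 of 280 values rest on fewer than 10 fragments. No paired analysis was possible because the labels give no pairing.

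With a pseudocount of 0.1 the log2 ratio took the other sign for Ccna2 (0.0063), Mcm5 (0.20), Rrm2 (0.18). With median-of-ratios scaling the log2 ratio took the other sign for Ccna2 (0.072), Aurka (0.038), Cdc20 (0.14), Kif20a (0.10), Mcm5 (0.17), Rrm1 (0.10), Rrm2 (0.088). With haemoglobin genes left out of the total the log2 ratio took the other sign for Ccna2 (0.11), Aurka (0.063), Cdc20 (0.20), Kif20a (0.12), Mcm4 (0.027), Mcm5 (0.17), Pcna (0.045), Rrm1 (0.16), Rrm2 (0.12). With limma voom on the recovered fragments the log2 ratio took the other sign for Ccna2 (0.028), Mcm5 (0.42), Rrm2 (0.27). With saline replicates 1 and 4 left out the log2 ratio took the other sign for Ccna2 (0.41), Cdc20 (0.24), Kif20a (0.36), Mcm2 (-0.25), Mcm6 (-0.017), Rrm2 (0.30). With rescaling to TPM the log2 ratio took the other sign for Ccnb1 (-0.30), Cdk1 (-0.44), Bub1 (-0.31), Nusap1 (-0.33), Mcm2 (-0.46), Mcm6 (-0.20), Mcm7 (-0.21). With the haemoglobin covariate the log2 ratio took the other sign for Ccnb1 (-1.03), Cdk1 (-1.17), Bub1 (-0.88), Ube2c (-0.62), Nusap1 (-1.20), Tpx2 (-0.92), Birc5 (-0.63), Mki67 (-1.08), Mcm2 (-0.31), Mcm3 (-0.29), Mcm6 (-0.32), Mcm7 (-0.31). Leaving out 1 library at a time turned the sign at least once for 15 members, whose lowest and highest values were -0.35 and 0.39 for Ccna2, -0.15 and 0.35 for Ccnb1, -0.076 and 0.48 for Cdk1, -0.23 and 0.062 for Aurka, -0.075 and 0.42 for Bub1, -0.24 and 0.32 for Cdc20, -0.34 and 0.40 for Kif20a, -0.38 and 0.056 for Kif23, -0.083 and 0.52 for Nusap1, -0.52 and 0.14 for Top2a, -0.31 and 0.27 for Mcm2, -0.34 and 0.13 for Mcm5, -0.14 and 0.51 for Mcm6, -0.48 and 0.20 for Rrm1, -0.35 and 0.34 for Rrm2.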

Other observations

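Further genes of the pathway, picked after their values were seen, had the arrangement of Ube2c and Cdc25b, in which saline replicate 4 lies among the FeCl3 libraries and FeCl3 replicates 3 and 1 lead. Fzr1, which activates the anaphase promoting complex outside mitosis, had 96.4, 33.5, 100.4 and 42.0 FPKM after FeCl3, against 9.28, 9.47, 18.2 and 43.2 FPKM after saline. The transcription factor gene E2f2 had 16.5, 4.41, 21.4 and 15.7 FPKM after FeCl3, against 0.626, 1.32, 1.66 and 10.9 FPKM after saline. Tfdp2, a dimer partner of E2F factors, ranged from 8.91 to 25.4 FPKM after FeCl3, against 2.69 to 13.2 FPKM after saline. The thymidine kinase gene Tk1 had 16.5, 4.73, 23.3 and 12.9 FPKM after FeCl3, against 0.854, 2.11, 1.62 and 13.5 FPKM after saline. Securin (Pttg1), the inhibitor of separase, had 14.6, 4.08, 21.2 and 12.8 FPKM after FeCl3, against 1.30, 0.649, 1.46 and 12.6 FPKM after saline. In all 5 genes every FeCl3 library was above saline replicates 1 to 3. Adjusted p-values in limma were 0.245 to 0.262 for these genes, at log2 ratios of 1.48 to 2.05. Without saline replicate 4 the adjusted p-values in limma were 0.0519 to 0.0705, at log2 ratios of 1.87 to 2.67. The haemoglobin covariate gave log2 ratios between -0.73 and 0.0048, at an adjusted p of 0.9998 in limma.

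The genes with an unadjusted p under 0.05 in the other direction, also picked after their values were seen, included E2f6, a repressor of the E2F family, at 9.47, 11.4, 5.94 and 9.76 FPKM after FeCl3, against 23.3, 25.7, 12.8 and 9.95 FPKM after saline. Cdc25a, the phosphatase of the G1 to S transition, had 2.69, 2.17, 1.66 and 1.67 FPKM after FeCl3, against 2.03, 7.80, 4.66 and 3.63 FPKM after saline. The anaphase promoting complex subunit Anapc2 was lower in every FeCl3 library than in every control, at 11.1 to 17.1 FPKM after FeCl3, against 17.6 to 32.5 FPKM after saline. Their log2 ratios were -0.83, -0.77 and -0.59, with adjusted p-values in limma of 0.281, 0.295 and 0.295.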
